A study of Mus musculus with 15 samples.

Results

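The 45 genes described here are the mouse Wnt ligands, the 2 proteins that ready them for secretion, the Frizzled receptors, their co-receptors and alternative receptors, and the secreted inhibitors. They were taken by name from a fixed list: 19 ligands, 2 processing genes, 10 Frizzled genes, 5 co-receptor genes and 9 inhibitor genes. All 45 were found by Entrez identifier among the 36528 genes of the deposited tables. The libraries hold polyA RNA of sorted tumour cells from the skin of mice with basal cell carcinoma, a tumour driven by Hedgehog signalling. There were 4 control libraries, 8 after 6 days of vismodegib and 3 after 14 days. Vismodegib inhibits SMO, the membrane protein that passes on the Hedgehog signal.

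Wnt proteins are secreted signals that carry a lipid, which the enzyme Porcn attaches, and that the carrier Wls takes to the cell surface. When a Wnt binds a Frizzled receptor together with Lrp5 or Lrp6, beta-catenin accumulates and drives transcription with LEF and TCF factors. Other Wnts act through Ror or Ryk receptors without beta-catenin. Secreted Frizzled-related proteins (Sfrp) and Wif1 bind Wnts outside the cell, and most Dickkopf proteins (Dkk) occupy Lrp5 and Lrp6. In skin this pathway is known for starting hair follicle formation and each new growth phase of the follicle.

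Every group carried the same alleles, K14Cre-ER, Ptch1fl/fl, p53fl/fl and Lgr5GFP. The K14 promoter confines the inducible Cre to basal epithelial cells, so deletion of Ptch1 (the brake on SMO) and p53 starts there, and the control libraries carry these alleles as well. The treatment label of the controls says only control, and the series calls their mice untreated. The sources used here give neither the ages of the mice nor the sorting gate. The labels do not say whether the libraries of 1 group are different mice, and the p-values therefore rest on the spread among libraries, which may be technical. Total counts ran from 27336935 to 256569828 per library, and 3 counts in a library equal at most 0.110 CPM, the count scaled to the library total. Replicates are numbered here in the order in which the series lists them within each group, since the labels give no numbers. Sample identifiers fell into 3 ranges of numbers, and no label names these as batches. The first, range A, held control replicates 1 to 3 and 6-day replicates 1, 3, 4, 6 and 8 (27336935 to 38657170 counts). Range B held control replicate 4 and 6-day replicates 2, 5 and 7 (93183564 to 256569828 counts), and range C held the 14-day libraries alone, so range C and 14 days cannot be told apart. The transcripts of 8 basal and follicular keratinocyte markers summed to 21851 to 36186 CPM in controls, 30848 to 43396 CPM at 6 days and 32328 to 45066 CPM at 14 days. Hhip, a Hedgehog target that binds the ligand, lay between 287 and 1332 CPM in controls, between 32.3 and 239 CPM at 6 days and between 28.6 and 159 CPM at 14 days.

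At 14 days of vismodegib the transcripts of the ligand Wnt3a and of the Wnt carrier Wls were higher than in controls, and those of the inhibitor Sfrp5 were lower. Wls and the ligand Wnt11 were also higher at 14 than at 6 days. At 6 days none of the 38 tested genes passed the test against controls. The remaining 7 of the 45 genes (Wnt1, Wnt8b, Wnt9b, Dkk1, Dkk2, Dkk4 and Sfrp4) had too few reads to be tested. A gene was called when its adjusted p was under 0.05 (edgeR quasi-likelihood test, Benjamini-Hochberg over 18751 genes). In bulk RNA, fewer cells of a type and less RNA per cell cannot be told apart.

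At 6 days 0 of 38 were called, beside 1.26% of all genes tested. An unadjusted p under 0.05 was found for 9 of the 38, beside 2377 of all 18751 genes tested. The same counts were 12 beside 4370 for 14 days against control and 10 beside 4333 for 14 against 6 days. Of the 38, DESeq2 called 3 at 6 days (Fzd9, Ror1 and Wnt3a) and limma-voom 1 (Ror1), beside 846 and 826 of all genes. For 14 days against control 3 of 38 were called, beside 6.6% of all genes, 2 higher (3.25% of all genes) and 1 lower (3.35%). For 14 against 6 days 2 of 38 were called, both higher, beside 3.89% of all genes in either direction and 2.14% in that one. Counts this small among 38 genes cannot place the set above or below these shares. The libraries of 14 days and control did not overlap for 5 of 38 genes (Wnt3a, Fzd9 and Wls higher, Ryk and Sfrp5 lower), beside 23.4% of all genes, and those of 14 and 6 days for 3 (Wls higher, Wnt6 and Ryk lower), beside 11.7%. The median log2 fold change of the 38 genes was 0.07 at 6 days, 0.23 at 14 days and 0.03 between 14 and 6 days, where all genes tested had 0.03, -0.02 and -0.06. By role, the 16 tested ligands had medians of 0.17, 0.82 and 0.54, the 10 Frizzled genes 0.22, 0.30 and -0.12, and the 5 co-receptor genes -0.08, -0.35 and -0.27. The 2 comparisons with controls share the 4 control libraries, and the 2 comparisons that involve 14 days share its 3 libraries.

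The 250 bases before the transcript starts of the 4 called genes are shown, since these are the genes whose level differed by the test. They are RefSeq sequences of GRCm38.p6, printed from 5′ to 3′ in the direction of transcription. For Wnt11, which has 2 windows in the table, the one with a motif match is printed. The windows are chr11:59290752-59291001 on the minus strand for Wnt3a, chr3:159839400-159839649 on the plus strand for Wls, chr7:98834862-98835111 on the plus strand for Wnt11 and chr19:42202253-42202502 on the minus strand for Sfrp5. Capitals mark a match to the LEF and TCF motif CTTTGAT, here as its reverse complement.
Wnt3a: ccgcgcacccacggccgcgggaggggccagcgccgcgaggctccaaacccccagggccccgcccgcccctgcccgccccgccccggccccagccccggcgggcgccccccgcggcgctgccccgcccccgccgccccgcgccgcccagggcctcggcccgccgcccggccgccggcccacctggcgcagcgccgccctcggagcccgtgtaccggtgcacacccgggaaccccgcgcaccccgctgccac
Wls: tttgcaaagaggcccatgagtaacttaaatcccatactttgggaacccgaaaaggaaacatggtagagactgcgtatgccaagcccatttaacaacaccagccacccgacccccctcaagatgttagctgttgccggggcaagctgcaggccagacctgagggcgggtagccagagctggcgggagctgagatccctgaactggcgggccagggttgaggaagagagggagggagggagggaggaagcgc
Wnt11: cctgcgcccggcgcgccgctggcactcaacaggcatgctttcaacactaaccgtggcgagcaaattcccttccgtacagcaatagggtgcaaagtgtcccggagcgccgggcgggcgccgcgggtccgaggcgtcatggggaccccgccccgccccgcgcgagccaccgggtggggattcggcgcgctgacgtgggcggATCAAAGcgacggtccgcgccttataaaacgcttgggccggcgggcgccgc
Sfrp5: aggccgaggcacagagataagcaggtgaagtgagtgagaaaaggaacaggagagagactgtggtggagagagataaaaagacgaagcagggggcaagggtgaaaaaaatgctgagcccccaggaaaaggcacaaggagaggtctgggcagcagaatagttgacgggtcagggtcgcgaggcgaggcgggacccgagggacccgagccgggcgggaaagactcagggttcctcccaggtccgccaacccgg
The Wnt3a window was 87.6% G and C with 41 CpG dinucleotides, and the printed Wnt11 window 70.8% with 37. The other Wnt11 window, chr7:98838595-98838844, had 56.8% with 16 and no match to the motif. The Sfrp5 window had 59.6% with 13, and the Wls window 58.0% with 8, where the medians over 32851 promoter windows of this length were 52.4% and 6. The match in Wnt11 begins 51 bases before the transcript start. Searched on both strands, CTTTGAT was found in 3.21% of all windows and in 2 of the 33 windows that cover 30 of the 45 genes, those of Wnt11 and Wnt5b. The GLI motif GACCACCC, bound by the transcription factors at the end of the Hedgehog pathway, was found in 0.703% of all windows and in 0 of the 33. Neither motif contains the other. A match is a run of letters and not a bound site.

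Wnt3a, a ligand known for signalling through beta-catenin, was the ligand that passed the test at 14 days. Wnt3a measured 2.76, 1.01, 0.500 and 1.13 CPM in control replicates 1 to 4 and 22.6, 10.9 and 12.4 CPM in 14-day replicates 1 to 3, and its 6-day libraries ran from 1.24 to 11.1 with a median of 4.87 CPM. All 3 of the 14-day libraries lay above every control library, as did 5 of the 8 at 6 days. Mean levels were 1.35 ± 0.981 CPM (SD, n = 4), 5.11 ± 3.46 CPM (SD, n = 8) and 15.3 ± 6.34 CPM (SD, n = 3). At 14 days Wnt3a was 11.3-fold above controls (log2 fold change 3.50, SE 0.72, adjusted p = 0.0123). Its log2 fold change was 1.92 (SE 0.61, adjusted p = 0.159) at 6 days and 1.58 (SE 0.57, adjusted p = 0.122) between 14 and 6 days. The first of these values passed the test with DESeq2 (adjusted p = 0.0233) and the second with limma-voom (adjusted p = 0.00201). Within identifier range A the 6-day log2 fold change of Wnt3a was 1.55, and within range B, which has 1 control, it was 2.52. The 14-day call was kept in 14 of 15 fits that each left out 1 library and was lost without 14-day replicate 1 (log2 fold change 3.12, adjusted p = 0.0531). Wnt3a (Entrez Gene 22416, chr11:59248036-59290751 on GRCm38.p6) had no overlapping gene in the tables.

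Wnt11, a ligand known for guiding cell movements without beta-catenin, was lowest at 6 days and rose from there to 14 days. Wnt11 measured 5.64, 1.37, 1.56 and 5.25 CPM in control replicates 1 to 4 and 11.4, 1.20 and 6.87 CPM in 14-day replicates 1 to 3, and its 6-day libraries ran from 0.597 to 2.04 with a median of 1.12 CPM. At 6 days 5 of 8 libraries lay below every control, and 14-day replicates 1 and 3 lay above every 6-day library, whereas 14-day replicate 2 lay among them. Mean levels were 3.45 ± 2.30 CPM (SD, n = 4), 1.20 ± 0.444 CPM (SD, n = 8) and 6.48 ± 5.09 CPM (SD, n = 3). The log2 fold change between 14 and 6 days was 2.43 (SE 0.55, adjusted p = 0.0293), or 5.38-fold. Against controls it was -1.52 (SE 0.52, adjusted p = 0.190) at 6 days and 0.90 (SE 0.66, adjusted p = 0.440) at 14 days. The call between 14 and 6 days was lost without 14-day replicate 1 (log2 fold change 1.75, adjusted p = 0.339) or 14-day replicate 3 (adjusted p = 0.105). It was also lost without 6-day replicate 2 (adjusted p = 0.0507) or 5 (adjusted p = 0.0539), without the range B libraries (0.0538) and after thinning to equal depth (0.0732). Wnt11 (Entrez Gene 22411, chr7:98835084-98854747) overlaps the gene model Gm33770, which had 89 counts in all libraries together.

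Wnt10a and Wnt6 are neighbours on chromosome 1, 6.7 kb apart with 0 coding genes between them, and their values took different courses. Wnt10a is a ligand whose loss disturbs teeth, hair and other skin appendages. Wnt10a measured 93.1, 11.6, 20.4 and 13.1 CPM in control replicates 1 to 4 and 224, 67.2 and 114 CPM in 14-day replicates 1 to 3, and its 6-day libraries ran from 50.8 to 107 with a median of 59.5 CPM. Control replicate 1 lay within the treated range, while the other 3 controls lay below every treated library. The log2 fold change of Wnt10a was 0.91 (SE 0.50, adjusted p = 0.505) at 6 days and 1.96 (SE 0.60, adjusted p = 0.0647) at 14 days. Without control replicate 1 it was 2.08 (adjusted p = 0.0151) at 6 days and 3.17 (adjusted p = 0.00192) at 14 days. The 14-day value passed the test with range B as a covariate (log2 fold change 1.88, adjusted p = 0.0370), with DESeq2 (adjusted p = 0.0174) and with limma-voom (adjusted p = 0.00113). Between 14 and 6 days Wnt10a passed with limma-voom (log2 fold change 0.80, adjusted p = 0.0376). Within range A the 6-day value was 0.77, and within range B, where 1 library stands for the controls, it was 2.04.

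Wnt6, a ligand of surface epithelia, had its lowest group mean at 14 days. Wnt6 measured 21.3, 27.2, 23.9 and 76.5 CPM in control replicates 1 to 4 and 20.3, 26.0 and 24.7 CPM in 14-day replicates 1 to 3, and its 6-day libraries ran from 28.3 to 79.3 with a median of 43.6 CPM. All 3 of the 14-day libraries lay below every 6-day library, as happened in that direction for 6.28% of all genes tested. The fitted log2 fold change was -1.04 (SE 0.40, adjusted p = 0.143) between 14 and 6 days, 0.39 (SE 0.35, adjusted p = 0.769) at 6 days and -0.66 (SE 0.43, adjusted p = 0.388) at 14 days against control. The first of these passed the test with limma-voom (-0.75, adjusted p = 0.00871) and without control replicate 4 (-1.05, adjusted p = 0.0471). Wnt6 stood at 60.0 to 79.3 CPM in the 4 libraries of range B and at 21.3 to 43.7 CPM in the 8 of range A. Reads of Wnt6 cannot be told apart from those of the overlapping model Gm29539 (6425 counts in all).

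Wnt7b, a ligand of epidermis and the hair follicle bulge, varied widely between libraries. Wnt7b measured 465, 463, 319 and 246 CPM in control replicates 1 to 4 and 394, 161 and 433 CPM in 14-day replicates 1 to 3, and its 6-day libraries ran from 53.1 to 403 with a median of 157 CPM. At 6 days 6 of 8 libraries lay below every control, and 2 of the 3 libraries at 14 days lay within the control range. On the log2 scale its fold change was -1.07 (SE 0.47, adjusted p = 0.347) at 6 days with an unadjusted p of 0.0371, -0.18 (SE 0.60, adjusted p = 0.894) at 14 days and 0.89 (SE 0.51, adjusted p = 0.314) between 14 and 6 days. Within range A the 6-day value was -1.04 and within range B -0.86. Between 14 and 6 days Wnt7b passed the test with limma-voom (log2 fold change 1.18, adjusted p = 0.0319).

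Wnt3, which like Wnt3a signals through beta-catenin, ran from a library without a read to 114 CPM. Wnt3 measured 8.59, 0.178, 0.156 and 0 CPM in control replicates 1 to 4 and 114, 1.40 and 28.9 CPM in 14-day replicates 1 to 3, and its 6-day libraries ran from 0.151 to 8.13 with a median of 1.17 CPM. Libraries 1 and 3 at 14 days stood above all others, and the remaining 14-day library lay below control replicate 1, so the groups overlapped. The log2 fold change was 4.43 (SE 1.84, adjusted p = 0.161) at 14 days, 4.39 (SE 1.41, adjusted p = 0.0869) between 14 and 6 days and 0.04 (SE 1.37, adjusted p = 0.999) at 6 days. Between 14 and 6 days Wnt3 passed the test with DESeq2 (adjusted p = 0.0386), with limma-voom (0.0476) and with the 2 groups alone (0.0488). It also passed without control replicate 1 (adjusted p = 0.0417), and under no other setting. Without control replicate 1 the 14-day value was 8.98 (adjusted p = 0.0231), the 3 other controls holding 0 to 0.178 CPM. Wnt3 overlaps Wnt9b by 1098 bases on chromosome 11, and Wnt9b had 154 counts in all libraries, 123 of them in 14-day replicate 1, the library with the highest Wnt3. The library with high Wnt3 among the controls, replicate 1, was also the highest control for Wnt3a, Wnt10a and Fzd10.

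**Figure D1:**
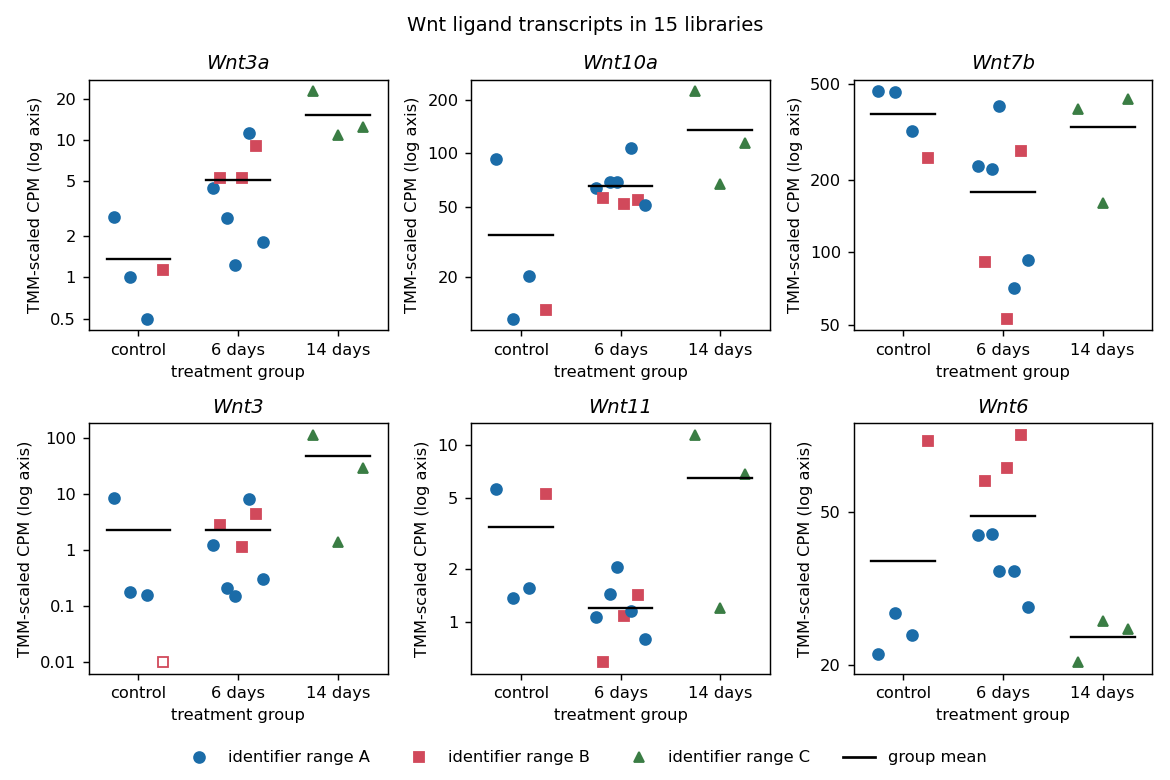
TMM-scaled CPM (log axis) of 6 Wnt ligands in each library, by treatment group and identifier range, with a line at each group mean; the open square for Wnt3 is a library at 0, drawn at 0.01. Wnt3a lay at 10.9 to 22.6 CPM at 14 days against 0.500 to 2.76 CPM in controls, and control replicate 1 lay above the other controls for Wnt10a (93.1 CPM) and Wnt3 (8.59 CPM).

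Wnt4, Wnt5a and Wnt5b were measured in every library and were not called in any comparison. Wnt4 is known from kidney and female reproductive tract development. Wnt4 measured 100, 68.3, 46.3 and 114 CPM in control replicates 1 to 4 and 178, 50.6 and 103 CPM in 14-day replicates 1 to 3, and its 6-day libraries ran from 55.6 to 111 with a median of 85.4 CPM. The groups overlapped throughout, with log2 fold changes of 0.02 at 6 days and 0.43 at 14 days against control. Wnt5a is the best known ligand of the Ror receptors. Wnt5a measured 21.5, 11.4, 9.84 and 8.13 CPM in control replicates 1 to 4 and 40.8, 14.6 and 22.6 CPM in 14-day replicates 1 to 3, and its 6-day libraries ran from 7.13 to 22.6 with a median of 18.1 CPM. The highest value was in 14-day replicate 1 and the groups overlapped, with log2 fold changes of 0.36 at 6 days and 1.03 (SE 0.43, adjusted p = 0.159) at 14 days. Wnt5b is the close relative of Wnt5a. Wnt5b measured 11.2, 15.7, 13.3 and 7.35 CPM in control replicates 1 to 4 and 12.0, 17.8 and 24.4 CPM in 14-day replicates 1 to 3, and its 6-day libraries ran from 5.18 to 27.2 with a median of 9.73 CPM. Its log2 fold changes were 0.19 and 0.60, with overlapping groups. Wnt5b overlaps Fbxl14, whose reads cannot be told apart from its own where the models coincide.

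The other tested ligands, Wnt2, Wnt2b, Wnt7a, Wnt8a, Wnt9a, Wnt10b and Wnt16, had group means between 0.0977 and 3.80 CPM, and none was called. Wnt16 was highest in the same libraries as Wnt3, with 5.72 CPM in control replicate 1, at most 0.0625 CPM in the other controls and 7.81 and 3.31 CPM in 14-day replicates 1 and 3. Wnt10b, a hair follicle ligand, ran from 0.275 to 5.40 with a median of 2.08 CPM at 6 days and from 0 to 1.34 CPM in controls (log2 fold change 2.17, SE 0.95, adjusted p = 0.347). The 3 highest 6-day values of Wnt10b, 5.40, 4.29 and 3.84 CPM, were those of range B. Of the untested ligands, Wnt1 had 4 reads in 1 library, Wnt8b at most 15 in a library and Wnt9b at most 123.

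On a per-length scale the ligand transcripts consisted mainly of 4 genes. Deposited RPKM values, which scale each count by the length of its gene and by a library factor, were summed over the 19 ligands in each library and each gene was taken as a share of that sum. Wnt7b made up 57.0 ± 12.8% of ligand RPKM in controls (SD, n = 4), 29.4 ± 15.5% at 6 days (SD, n = 8) and 35.3 ± 8.18% at 14 days (SD, n = 3). Wnt10a made up 10.4 ± 8.93%, 26.5 ± 7.84% and 31.2 ± 4.94% in the same groups. The Wnt10a share ran from 3.99 to 23.4% in controls and from 26.1 to 36.0% at 14 days, which do not overlap, and from 16.7 to 43.9% at 6 days. The RPKM of Wnt10a itself did overlap between controls and 14 days, with 40.7 in control replicate 1 and 28.2 in 14-day replicate 2. The Wnt7b share overlapped between groups, from 41.7 to 70.4% in controls and from 11.5 to 56.2% at 6 days. In 6-day replicates 2, 5, 6 and 8 and in 14-day replicate 1 the RPKM of Wnt10a exceeded that of Wnt7b. Wnt4 held 14.5 ± 5.24%, 17.6 ± 5.06% and 13 ± 1.45%, and Wnt6 held 11.6 ± 8.98%, 16.8 ± 6.08% and 5.99 ± 3.92%. Wnt3a, the called ligand, held at most 3.65% in any library. The summed ligand level was 127 ± 33.7 RPKM in controls, 106 ± 21.9 at 6 days and 179.7 ± 87.6 at 14 days, differences within the SD of the 14-day group. These shares are a description without a test, and a rise of 1 share lowers the others.

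**Figure D2:**
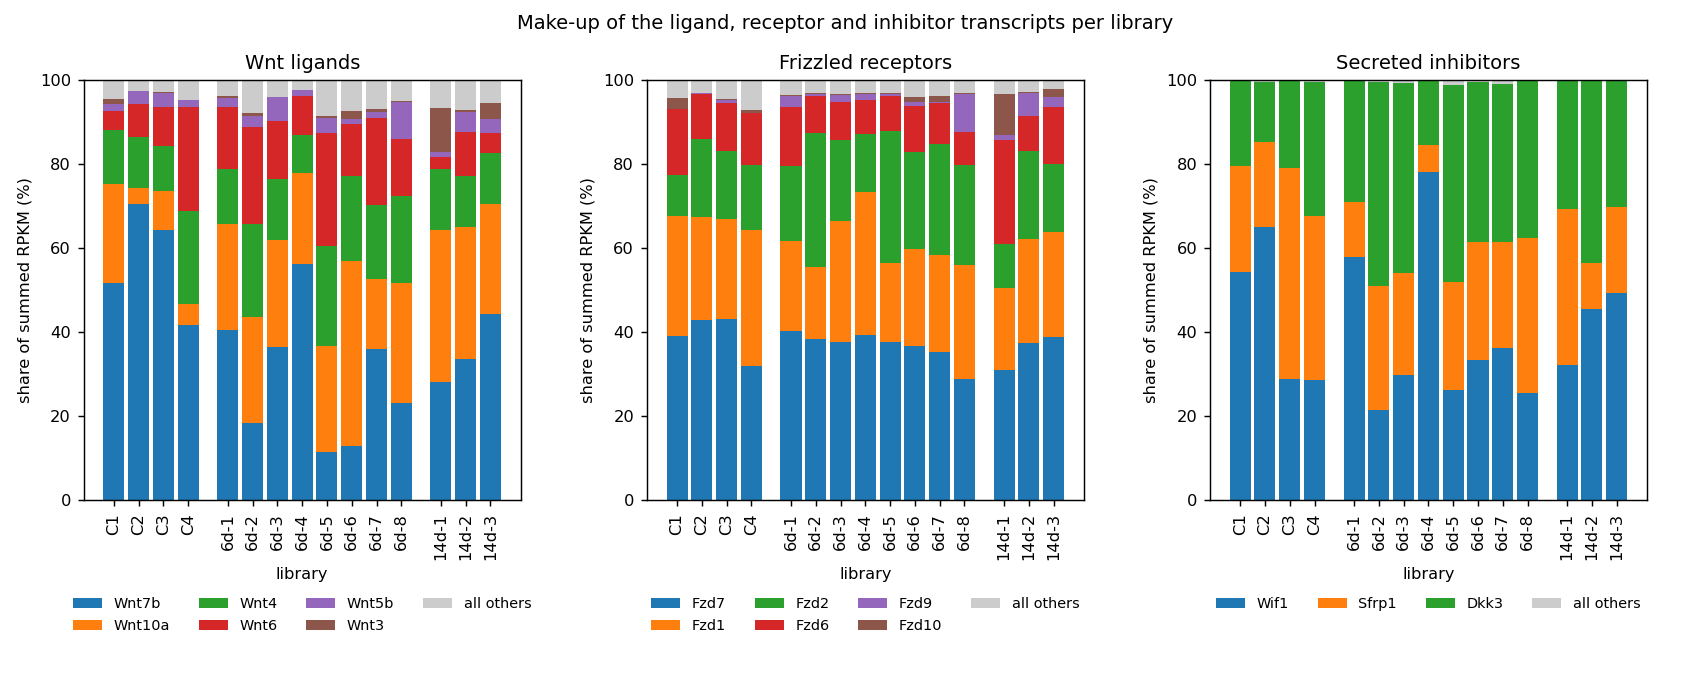
Share of the summed RPKM (%) of the ligands, Frizzled genes and secreted inhibitors taken by each gene in each library (C, control; 6d, 6 days; 14d, 14 days). Wnt7b averages 57.0% of the ligand total in controls and 29.4% at 6 days, while Fzd7 averages 39.2%, 36.7% and 35.8% of the Frizzled total in the 3 groups.

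Wls, the carrier that takes lipid-bearing Wnts out of the cell, rose at 14 days against both other groups. Wls measured 252, 223, 186 and 197 CPM in control replicates 1 to 4 and 388, 303 and 302 CPM in 14-day replicates 1 to 3, and its 6-day libraries ran from 181 to 274 with a median of 216 CPM. All 3 of the 14-day libraries lay above every control and every 6-day library. Such separation from controls in that direction was found for 11.7% of all genes tested, and from 6-day libraries for 5.42%. Mean levels were 214 ± 29.6 CPM (SD, n = 4), 221 ± 30.7 CPM (SD, n = 8) and 331 ± 49.7 CPM (SD, n = 3). Its log2 fold change was 0.63 (SE 0.17, adjusted p = 0.0442) against control, or 1.54-fold, and 0.58 (SE 0.15, adjusted p = 0.0454) against 6 days, or 1.5-fold. At 6 days against control it was 0.05 (SE 0.14, adjusted p = 0.962). Leaving out 1 library at a time kept the call against control only without control replicate 1, 6-day replicate 1 or 6-day replicate 3, and in the other 12 fits the adjusted p was 0.0511 to 0.202 (log2 fold change 0.51 to 0.70). The call against 6 days was kept only without control replicate 1, control replicate 4 or 6-day replicate 3, and the other 12 fits gave 0.0519 to 0.390 (log2 fold change 0.46 to 0.65). Of 10 other settings 6 lost the call against control (adjusted p = 0.0578 to 0.127, with RLE and upper-quartile scaling among them), and 4 lost the call against 6 days (0.0615 to 0.0738). Wls (Entrez Gene 68151, chr3:159839650-159938666) had no overlapping gene in the tables.

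Porcn, the enzyme that adds the lipid, is encoded on the X chromosome and was not called. Porcn measured 69.6, 50.9, 33.3 and 65.4 CPM in control replicates 1 to 4 and 56.2, 33.9 and 32.4 CPM in 14-day replicates 1 to 3, and its 6-day libraries ran from 39.8 to 81.2 with a median of 58.2 CPM. The groups overlapped, with log2 fold changes of 0.08 at 6 days, -0.42 at 14 days and -0.51 between 14 and 6 days. The last of these values passed the test with limma-voom (log2 fold change -0.62, adjusted p = 0.0276).

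Among transcripts of other cell types, some of the myeloid markers were higher in the 14-day group. Of 7 myeloid markers 2 (C1qb and Adgre1) were higher at 14 days than in controls, and 4 (C1qa, C1qb, Csf1r and Adgre1) were higher than at 6 days. Their 7 levels summed to 4.04 to 14.3 CPM in controls, 1.22 to 9.36 CPM at 6 days and 22.7 to 34.4 CPM at 14 days, and Adgre1 was at 0 in all 6-day libraries. Cd68 did not rise, with means of 4.94 CPM in controls, 4.41 CPM at 6 days and 4.37 CPM at 14 days. Ptprc had means of 0.466, 0.0454 and 0.605 CPM in the same groups and was not called. Of 8 keratinocyte markers 3 (Cdh1, Itga6 and Krt15) were higher at 14 days than in controls and 0 were called lower, with a median log2 fold change of 0.85. Krt17, among the most abundant of them, had means of 9108 CPM in controls, 4201 CPM at 6 days and 4636 CPM at 14 days and was not called. The 8 fibroblast markers summed to 173 to 218 CPM in controls, 244 to 457 CPM at 6 days and 159 to 418 CPM at 14 days. Most of that sum was Fbln1 (means 174, 326 and 306 CPM), Col1a1 reached 14.7 CPM at most, Lum was at 0 in all controls and none of the list was called. The median log2 fold change of the 7 tested fibroblast markers was -1.20 at 6 days and -1.78 at 14 days against control, opposite in sign to the course of Fbln1. Melanocyte markers summed to 34.3 to 667 CPM in controls, 50.7 to 835 CPM at 6 days and 46.7 to 356 CPM at 14 days. Endothelial markers stayed at or below 6.69 CPM, lymphoid at or below 3.19 CPM, dermal papilla at or below 3.37 CPM and Schwann cell markers at or below 51.6 CPM. The part of these cells in the values of Wnt3a, Wls, Wnt11 and Sfrp5 was not tested.

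The 10 Frizzled genes were all tested, and none was called in any comparison by the edgeR fit of all 15 libraries without covariates. Some passed under other settings, as given for each gene below. On the per-length scale the Frizzled transcripts were mostly Fzd7, Fzd1, Fzd2 and Fzd6 in every group. Fzd7 had a level of 78.0 ± 14.4 RPKM in controls (SD, n = 4), 100.01 ± 22.7 at 6 days (SD, n = 8) and 97.4 ± 33.4 at 14 days (SD, n = 3). Fzd1 had 56.5 ± 22.3, 65.9 ± 20.2 and 63.3 ± 22.9 RPKM, Fzd2 had 31.1 ± 12.7, 66.0 ± 29.9 and 44.5 ± 23.0 RPKM, and Fzd6 had 25.2 ± 6.46, 25.5 ± 4.88 and 37.8 ± 10.4 RPKM. Fzd7 was the highest of the 10 on average in each group, while Fzd1 and Fzd2 did not differ beyond their spread at 6 days. Fzd2 held 15 ± 3.80% of the Frizzled total in controls, 23.4 ± 6.38% at 6 days and 15.8 ± 5.19% at 14 days.

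Fzd9, a single-exon Frizzled gene, had the highest fold values of the 10 against controls. Fzd9 measured 0.0813, 1.31, 2.72 and 0.626 CPM in control replicates 1 to 4 and 5.17, 42.9 and 18.7 CPM in 14-day replicates 1 to 3, and its 6-day libraries ran from 1.60 to 83.0 with a median of 7.22 CPM. At 6 days 7 of 8 libraries lay above every control, led by replicate 8 with 83.0 CPM, and at 14 days all 3 did. The fitted log2 fold change was 3.82 (SE 1.22, adjusted p = 0.159) at 6 days with an unadjusted p of 0.00670, and 4.25 (SE 1.33, adjusted p = 0.0689) at 14 days with an unadjusted p of 0.00608. Within range A the 6-day value was 4.17 and within range B 2.24. With DESeq2 Fzd9 was called in both comparisons with controls (adjusted p = 0.00216 at 6 days and 0.00354 at 14 days), and with range B as a covariate at 14 days (adjusted p = 0.0441). Without 6-day replicate 8 the 14-day value was also called (adjusted p = 0.0270).

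Fzd2, a receptor known to take Wnt5a, stood higher in most 6-day libraries. Fzd2 measured 65.6, 175, 111 and 180.2 CPM in control replicates 1 to 4 and 85.6, 286 and 212 CPM in 14-day replicates 1 to 3, and its 6-day libraries ran from 161 to 515 with a median of 254 CPM. At 6 days 5 of 8 libraries lay above every control. On the log2 scale its fold change was 1.12 (SE 0.41, adjusted p = 0.223) at 6 days and 0.55 (SE 0.48, adjusted p = 0.528) at 14 days, and range A alone gave 0.90 at 6 days, range B alone 1.16. Fzd10 followed a few libraries. Fzd10 measured 14.3, 0.535, 1.03 and 4.79 CPM in control replicates 1 to 4 and 65.5, 2.76 and 19.1 CPM in 14-day replicates 1 to 3, and its 6-day libraries ran from 1.38 to 12.4 with a median of 2.74 CPM. Libraries 1 and 3 at 14 days lay above all others and the groups overlapped, with log2 fold changes of 2.5 (SE 1.11, adjusted p = 0.188) against control and 2.75 (SE 0.89, adjusted p = 0.0907) against 6 days. The value of Fzd10 against 6 days passed the test with DESeq2 (adjusted p = 0.0237) and limma-voom (0.0304), and under no other setting.

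Fzd4, which also serves as the receptor of the ligand Norrin, and Fzd5 had negative fitted values in both comparisons with controls. Fzd4 measured 6.13, 1.37, 5.25 and 13.6 CPM in control replicates 1 to 4 and 1.55, 1.96 and 2.68 CPM in 14-day replicates 1 to 3, and its 6-day libraries ran from 0.210 to 4.72 with a median of 1.83 CPM. The log2 fold change of Fzd4 was -1.5 (SE 0.65, adjusted p = 0.342) at 6 days and -1.67 (SE 0.89, adjusted p = 0.274) at 14 days, and with range B as a covariate the 6-day value was -1.85 (adjusted p = 0.0321). Between 14 and 6 days the value of Fzd4 was -0.17, and it turned to 0.85 with that covariate (adjusted p = 0.332) and to 0.89 without range B (adjusted p = 0.409). Fzd4 overlaps Tmem135 (47950 counts in all). Fzd5 measured 4.58, 3.98, 1.78 and 83.3 CPM in control replicates 1 to 4 and 2.74, 1.49 and 2.09 CPM in 14-day replicates 1 to 3, and its 6-day libraries ran from 1.07 to 22.8 with a median of 3.72 CPM. Control replicate 4 was far above the other controls, and the 6-day libraries of range B had 15.9 to 22.8 CPM against 1.07 to 4.83 CPM in range A. For Fzd5 the log2 fold change was -1.37 (SE 0.95, adjusted p = 0.660) at 6 days and -3.47 (SE 1.42, adjusted p = 0.153) at 14 days, -0.45 within range A at 6 days and -2.07 within range B, whose 1 control is the library with 83.3 CPM. Without that control the 6-day value turned to 1.40 (adjusted p = 0.404). The 14-day value of Fzd5 passed the test with DESeq2 (adjusted p = 0.0189) and under no other setting.

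The remaining Frizzled genes, Fzd1, Fzd3, Fzd6, Fzd7 and Fzd8, had no log2 fold change beyond 0.62 in either direction. Fzd7 measured 352, 535, 389.8 and 489.7 CPM in control replicates 1 to 4 and 338, 684 and 671 CPM in 14-day replicates 1 to 3, and its 6-day libraries ran from 369 to 821 with a median of 582 CPM. Fzd1 measured 236, 281, 194 and 453 CPM in control replicates 1 to 4 and 193, 413 and 395 CPM in 14-day replicates 1 to 3, and its 6-day libraries ran from 214 to 513 with a median of 319 CPM. Both genes had overlapping groups, and their log2 fold changes at 6 and 14 days were 0.40 and 0.35 for Fzd7 and 0.26 and 0.20 for Fzd1. The 14-day value of Fzd7 passed the test with limma-voom (log2 fold change 0.56, adjusted p = 0.0430). For Fzd1 the 6-day value had opposite signs in the ranges, 0.64 in range A and -0.55 in range B with its 1 control. Fzd6 is known for setting the orientation of hairs in the skin. Fzd6 measured 127, 118, 92.4 and 169 CPM in control replicates 1 to 4 and 239, 137 and 207 CPM in 14-day replicates 1 to 3, and its 6-day libraries ran from 98.0 to 169 with a median of 127 CPM. Replicates 1 and 3 at 14 days lay above the other groups and replicate 2 among them, with log2 fold changes of 0.62 (SE 0.24, adjusted p = 0.138) against control and 0.56 (SE 0.21, adjusted p = 0.137) against 6 days. With range B as a covariate both values of Fzd6 passed the test (adjusted p = 0.0433 and 0.0466). Both also passed with limma-voom (adjusted p = 0.00407 and 0.00757). Fzd3 is known from axon guidance. Fzd3 measured 36.5, 32.9, 42.9 and 64.6 CPM in control replicates 1 to 4 and 29.8, 63.3 and 38.8 CPM in 14-day replicates 1 to 3, and its 6-day libraries ran from 44.8 to 57.4 with a median of 48.3 CPM. Fzd8 measured 12.2, 14.9, 14.1 and 14.0 CPM in control replicates 1 to 4 and 16.1, 18.5 and 14.7 CPM in 14-day replicates 1 to 3, and its 6-day libraries ran from 12.6 to 32.2 with a median of 17.2 CPM. The groups of both overlapped, with log2 fold changes at 6 and 14 days of 0.18 and -0.01 for Fzd3 and 0.43 and 0.25 for Fzd8.

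Of the co-receptors, Ror1, a tyrosine kinase-like receptor that binds Wnt5a, was lowest at 6 days. Ror1 measured 62.0, 112, 136 and 59.7 CPM in control replicates 1 to 4 and 54.4, 81.7 and 87.5 CPM in 14-day replicates 1 to 3, and its 6-day libraries ran from 20.4 to 65.9 with a median of 41.2 CPM. At 6 days 6 of 8 libraries lay below every control, and the 14-day libraries overlapped both groups. The log2 fold change was -1.11 (SE 0.32, adjusted p = 0.112) at 6 days with an unadjusted p of 0.00304, -0.31 (SE 0.41, adjusted p = 0.702) at 14 days and 0.80 (SE 0.35, adjusted p = 0.182) between 14 and 6 days. Within range A the 6-day value was -0.97 and within range B -1.26. Ror1 was called at 6 days with DESeq2 (adjusted p = 0.0264), with limma-voom (adjusted p = 0.0231) and with range B as a covariate (adjusted p = 0.0115). Between 14 and 6 days Ror1 was called with limma-voom (log2 fold change 0.90, adjusted p = 0.0101). Ror2, the other Ror receptor, had overlapping groups. Ror2 measured 12.1, 33.7, 38.4 and 41.4 CPM in control replicates 1 to 4 and 11.5, 28.9 and 27.8 CPM in 14-day replicates 1 to 3, and its 6-day libraries ran from 10.5 to 32.2 with a median of 18.9 CPM. Its log2 fold change was -0.62 (SE 0.35, adjusted p = 0.521) at 6 days and -0.47 (SE 0.45, adjusted p = 0.580) at 14 days.

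Ryk, a receptor with a Wif-type domain outside the cell, had the narrowest spread among the co-receptors. Ryk measured 298, 316, 273 and 286 CPM in control replicates 1 to 4 and 215, 258 and 241 CPM in 14-day replicates 1 to 3, and its 6-day libraries ran from 290.0 to 358 with a median of 319 CPM. All 3 of the 14-day libraries lay below every library of the other groups, a separation found in that direction for 11.7% of all genes tested against control and for 6.28% against 6 days. Its log2 fold change was -0.30 (SE 0.14, adjusted p = 0.200) against control and -0.45 (SE 0.12, adjusted p = 0.0557) against 6 days. The second value passed the test under 5 of the other settings, among them range B as a covariate (adjusted p = 0.0105), and without control replicate 4 (adjusted p = 0.0448). The value against control passed with DESeq2 (adjusted p = 0.0306) and limma-voom (0.0300).

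Lrp5 and Lrp6, the co-receptors for beta-catenin signalling, followed the identifier ranges. Lrp5 measured 15.4, 23.6, 19.9 and 288 CPM in control replicates 1 to 4 and 37.1, 25.4 and 23.9 CPM in 14-day replicates 1 to 3, and its 6-day libraries ran from 14.2 to 213 with a median of 21.0 CPM. The 4 libraries of range B had 209 to 288 CPM of Lrp5 and the 8 of range A had 14.2 to 23.6 CPM, so the lowest value of range B was 8.87 times the highest of range A. A gap of more than 4 times in that direction was found for 1.26% of all genes tested. For Lrp5 the log2 fold change was 0.06 (SE 0.96, adjusted p = 0.995) at 6 days, -1.59 (SE 1.26, adjusted p = 0.483) at 14 days and -1.65 (SE 1.17, adjusted p = 0.424) between 14 and 6 days. With range B as a covariate the value between 14 and 6 days turned to 0.71 (adjusted p = 0.0185) and that against control to 0.49 (adjusted p = 0.0959). Lrp6 measured 85.3, 103, 105 and 267 CPM in control replicates 1 to 4 and 85.2, 137 and 109 CPM in 14-day replicates 1 to 3, and its 6-day libraries ran from 91.7 to 203 with a median of 119 CPM. Range B had 158 to 267 CPM of Lrp6 and range A 85.3 to 131 CPM, and log2 fold changes of Lrp6 were -0.08 at 6 days and -0.35 at 14 days.

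**Figure D3:**
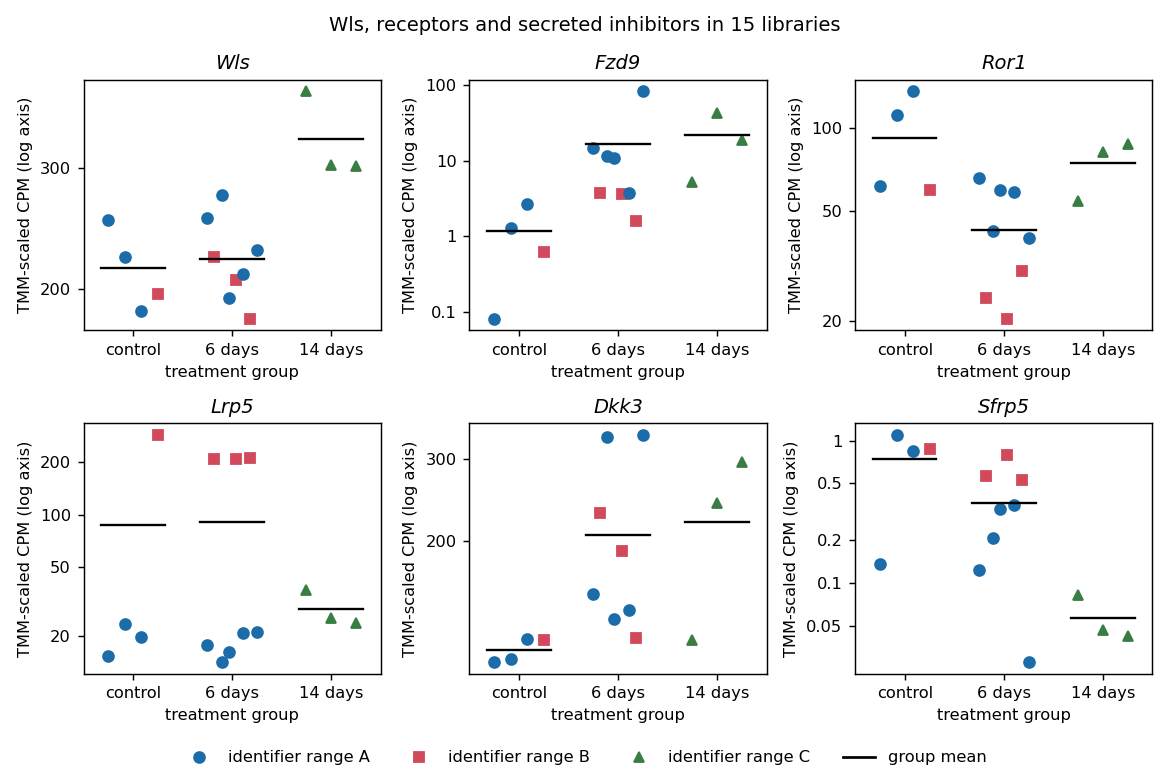
TMM-scaled CPM (log axis) of Wls, 3 receptor genes and 2 secreted inhibitors in each library, by treatment group and identifier range, with a line at each group mean. Wls lay at 302 to 388 CPM at 14 days and at no more than 274 CPM elsewhere, and Lrp5 separated range B (209 to 288 CPM) from range A (14.2 to 23.6 CPM).

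Sfrp5, a decoy that binds Wnts, was the 1 secreted inhibitor that passed the test, at a low level. Sfrp5 measured 0.136, 1.10, 0.844 and 0.873 CPM in control replicates 1 to 4 and 0.0821, 0.0466 and 0.0421 CPM in 14-day replicates 1 to 3, and its 6-day libraries ran from 0.0277 to 0.793 with a median of 0.339 CPM. The 14-day values rest on 12, 6 and 5 reads, and the control values on 5, 37, 27 and 78. All 3 of the 14-day libraries lay below every control, control replicate 1 being the lowest control. The fitted log2 fold change was -3.66 (SE 1.01, adjusted p = 0.0435) at 14 days, or 12.6-fold lower, -0.99 (SE 0.68, adjusted p = 0.655) at 6 days and -2.67 (SE 0.92, adjusted p = 0.106) between 14 and 6 days. The 14-day call was kept without control replicate 1 or without 6-day replicate 1, 5, 7 or 8, and the other 10 fits that left out a library gave adjusted p of 0.0517 to 0.154 (log2 fold change -4.00 to -3.40). It was also lost without a filter on low counts (adjusted p = 0.0676), with the 2 groups alone (0.0812) and after thinning to equal depth (0.0888). The value of Sfrp5 between 14 and 6 days passed the test with DESeq2 (adjusted p = 0.0132) and limma-voom (0.0408).

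Dkk3, a divergent Dickkopf protein, had all 6-day libraries above the controls on the TMM-scaled CPM scale but not on the deposited RPKM scale. Dkk3 measured 109.8, 111, 123 and 123 CPM in control replicates 1 to 4 and 123, 242 and 296 CPM in 14-day replicates 1 to 3, and its 6-day libraries ran from 124 to 338 with a median of 172 CPM. The separation was narrow, since the lowest 6-day library had 124.0 CPM and the highest control 123.4 CPM, and it was the 1 of 38 genes with separate groups at 6 days, beside 2.69% of all genes tested (1.22% higher and 1.47% lower). In RPKM, 6-day replicate 7 had 28.7, below control replicates 3 (29.7) and 4 (29.8), so the groups overlapped. On the log2 scale its fold change was 0.82 (SE 0.31, adjusted p = 0.247) at 6 days with an unadjusted p of 0.0177, and 0.91 (SE 0.37, adjusted p = 0.148) at 14 days. Within range A the 6-day value was 0.94 and within range B 0.56. The 14-day value of Dkk3 passed the test with limma-voom (log2 fold change 1.23, adjusted p = 0.0107).

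Wif1 and Sfrp1 were, with Dkk3, the inhibitors that made up nearly all of the inhibitor total. Wif1 held 44.2 ± 18.4% of inhibitor RPKM in controls, 38.6 ± 19.5% at 6 days and 42.3 ± 9.06% at 14 days, Sfrp1 33.6 ± 13.6%, 23.6 ± 9.64% and 22.8 ± 13.3%, and Dkk3 21.8 ± 7.33%, 37.3 ± 10.9% and 34.7 ± 7.56%. Wif1 measured 303, 519.8, 179.9 and 114 CPM in control replicates 1 to 4 and 133, 261 and 504 CPM in 14-day replicates 1 to 3, and its 6-day libraries ran from 105 to 711 with a median of 178 CPM. Sfrp1 measured 176, 202, 391.7 and 194 CPM in control replicates 1 to 4 and 193, 78.8 and 261 CPM in 14-day replicates 1 to 3, and its 6-day libraries ran from 71.0 to 431 with a median of 136 CPM. The groups overlapped for both genes, and log2 fold changes at 6 and 14 days were -0.19 and 0.10 for Wif1 and -0.48 and -0.44 for Sfrp1. Sfrp2 was tested at low level, with group means of 0.550, 1.43 and 0.582 CPM (log2 fold change at 6 days 1.39, adjusted p = 0.437). Dkk1, the best known blocker of Lrp5 and Lrp6, had 0 reads in all 15 libraries. Dkk4 and Sfrp4 had at most 4 reads in any library, and Dkk2 had at most 59.

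Other genes of the pathway were read from 4 lists, by counts alone. Among all genes tested 0.485% were called higher at 6 days, 3.25% at 14 days and 2.14% between 14 and 6 days, with median log2 fold changes of 0.03, -0.02 and -0.06, and each list had at most 2 calls. Of 21 genes that carry the signal inside the cell 0 were called in any comparison, with medians of 0.12 at 6 days, -0.16 at 14 days and -0.28 between them. Of 8 feedback genes 7 were tested, with medians of 0.68 at 6 days, 1.15 at 14 days and -0.05 between them. At 14 days against control 6 had positive values and 1 a negative value, Ccnd1 (log2 fold change -2.57, adjusted p = 0.114). The 1 called was Tnfrsf19, a receptor induced by beta-catenin signalling. Tnfrsf19 rose 9.96-fold at 14 days, with 17.4 ± 18.5 CPM in controls and 173 ± 179 CPM at 14 days (SD, n = 4 and 3, adjusted p = 0.0464). Of 23 other extracellular and membrane genes 18 were tested and 2 were called, both higher at 14 days. Rnf43, an enzyme that removes Frizzled receptors from the surface, rose 2.77-fold from 32.2 ± 6.16 to 88.9 ± 11 CPM (SD, n = 4 and 3, adjusted p = 0.00380). Dkkl1, a relative of Dkk3, rose 7.74-fold from 0.157 ± 0.142 to 1.27 ± 0.504 CPM (adjusted p = 0.0143). Of 12 planar polarity genes Fuz rose 1.63-fold at 6 days (adjusted p = 0.0473) and Vangl1 1.90-fold between 6 and 14 days (adjusted p = 0.0372).

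**Figure D4:**
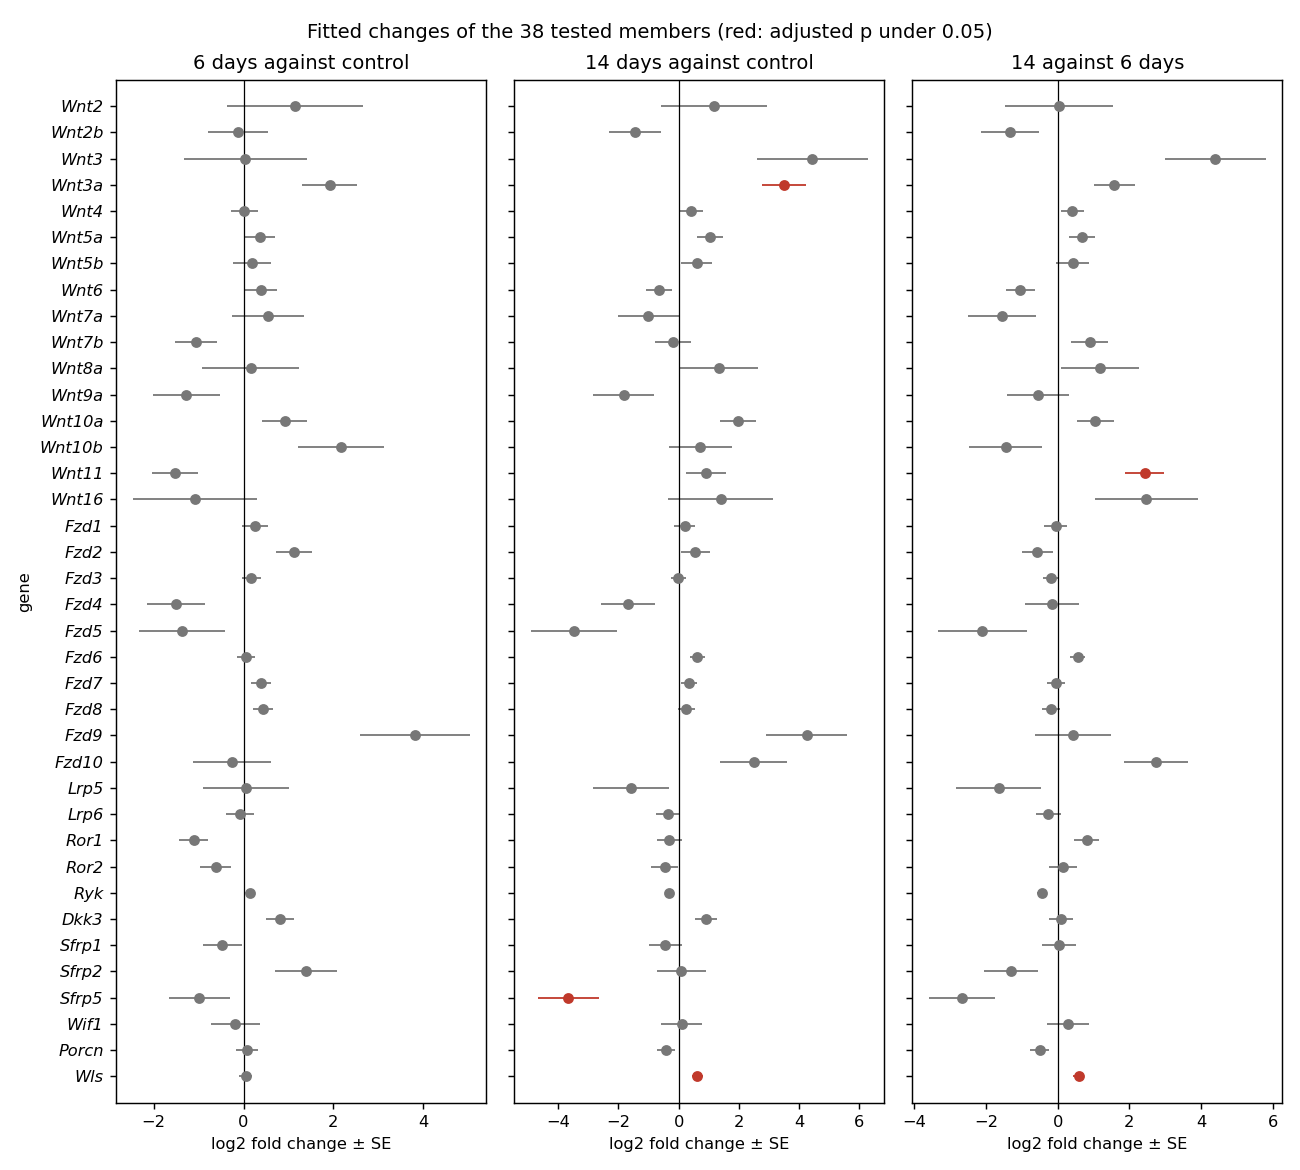
Fitted log2 fold changes (x axis, with SE) of the 38 tested genes (y axis) in the 3 comparisons, red where the adjusted p is under 0.05. At 6 days 0 genes are red, at 14 days against control Wnt3a (3.50), Wls (0.63) and Sfrp5 (-3.66) are, and between 14 and 6 days Wnt11 (2.43) and Wls (0.58).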

How the data were processed

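PolyA RNA of sorted tumour cells was sequenced in 15 libraries: 4 control, 8 taken 6 days and 3 taken 14 days into vismodegib. Per the file headers, the authors deposited for each gene a count of uniquely aligned reads and an RPKM value. The deposited RPKM is the same count divided by gene length and by a library factor (largest relative deviation 1.69e-13). Reads were aligned with GSNAP to GRCm38, per the submitters' processing notes. The annotation, the handling of strand and the versions were not given in the sources used here. Reads of overlapping and antisense genes therefore cannot be told apart.

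Entrez identifiers were matched to a RefSeq table of GRCm38.p6 (31049 of 36528). Counts were tested in edgeR 4.0.16 (R 4.3.3, limma 3.58.1) with TMM factors, filterByExpr on group and the quasi-likelihood F test, in 1 fit of all 15 libraries without covariates. This left 18751 genes, 12 residual degrees of freedom and a common biological coefficient of variation of 0.579. The threshold for a call was an adjusted p (Benjamini-Hochberg) below 0.05. TMM-scaled CPM are given as levels, and the ± sign marks the SD between libraries. In all 105 pairs the libraries differed by more than sampling noise (chi-square of at least 56.8 per degree of freedom). Floors of 3 counts cover counting error only, since PCR duplicates are not marked.

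Described singly were the 30 genes called in any comparison or with a mean of at least 5 CPM in a group. The genes, lists and rules were chosen with earlier results of these data known. Other settings were DESeq2 1.42.0, limma-voom with weighted samples, RLE or upper-quartile scaling, no filter, a filter of 1 CPM in 3 libraries, the 2 groups compared alone, range B as a covariate or left out, each range alone at 6 days, counts thinned to the lowest total and each library left out in turn.

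On data simulated from the real means and library sizes of 18751 genes, with 100 changed 2-fold and 100 changed 4-fold, the test for 6 days recovered 19 and 56, with 3 false among 78 calls. For 14 days it recovered 7 and 47, with 1 false among 55. The simulated libraries held no difference between identifier ranges, so these counts of false calls do not cover such a difference. Promoter windows hold 250 bases before each transcript start. Python 3.11.15, numpy 2.4.6, pandas 2.3.3 and matplotlib 3.10.9 did the other steps.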

Additional observations from a re-analysis of the deposited data

Results flagged for a closer look

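There were 5 values that stood apart within their group by Dixon's criterion at the 95% level on log2 values, among 60 groups of 4 or 8 libraries, and chance alone gives about 1 in 20 groups. Wnt10a had 107 CPM in 6-day replicate 6, the highest of its group. Lrp5 had 288 CPM in control replicate 4, the 1 control of identifier range B. Ror2 had 12.1 CPM in control replicate 1, the lowest control. Sfrp1 had 391.7 CPM in control replicate 3, the highest control. Sfrp5 had 0.136 CPM in control replicate 1, the lowest control, beside 0.844 to 1.10 CPM in the others. The set depends on the scale. On linear CPM, a scale added after these values were seen, 12 values passed, 3 of them listed above (Wnt10a at 6 days, Lrp5 and Sfrp1). The others were Wnt3 (8.59 CPM) and Wnt10a (93.1 CPM) in control replicate 1, Wnt6 (76.5 CPM), Fzd5 (83.3 CPM) and Lrp6 (267 CPM) in control replicate 4, Fzd8 (32.2 CPM), Fzd9 (83.0 CPM) and Sfrp1 (431 CPM) in 6-day replicate 8, and Wif1 (711 CPM) in 6-day replicate 4. Ror2 and Sfrp5 did not pass on that scale.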

How the results depend on the processing

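No paired analysis was possible because no label links a library of 1 group to a library of another. Of the 38 tested genes, 0 were called at 6 days, but 3 with DESeq2, 1 with limma-voom and 2 with range B as a covariate (Fzd4 and Ror1), and 0 to 1 when 1 library was left out. At 14 days against control 3 were called, and 7 with DESeq2, 8 with limma-voom, 6 with range B as a covariate, 1 without a filter, 1 with the 2 groups alone and 1 after thinning, and 0 (without 14-day replicate 1) to 6 (without control replicate 1) with 1 library left out. Between 14 and 6 days 2 were called, and 6 with DESeq2, 14 with limma-voom, 5 with range B as a covariate, 1 with upper-quartile factors, 1 without a filter, 1 without range B (Ryk) and 0 after thinning. With 1 library left out these were 0 (without 14-day replicate 1 or 3, or 6-day replicate 2 or 5) to 4 (without control replicate 4). Over all genes tested, 236 called at 6 days became 846 with DESeq2, 826 with limma-voom, 866 with the covariate and 465 without range B, and 69 (without control replicate 2) to 308 with 1 library left out. The 1238 at 14 days became 2752, 4205, 3196 and 2330 under the same settings, 374 with the 2 groups alone, and 376 (without 14-day replicate 1) to 1438. The 730 between 14 and 6 days became 2585, 4693, 2036 and 1322, 460 without a filter, and 3 (without 14-day replicate 1) to 1138 (without control replicate 4), with 43 without 14-day replicate 3. Among the 30 genes described singly, 2082 of the refitted values kept their sign and side of the threshold, 54 lost a call and 47 gained one, 2 of these in range B alone with its 1 control. Another 123 values changed sign without a call in either fit. In 118 of these the reported log2 fold change lay within 0.5 of 0, and the other 5 were Fzd5 at 6 days (1.40 without control replicate 4), Lrp5 against control at 14 days (0.49 with the covariate, 0.54 without range B and 0.55 without control replicate 4) and Lrp5 between 14 and 6 days (0.69 without range B). The 1 value that changed sign and passed the test was Lrp5 between 14 and 6 days, 0.71 with range B as a covariate. The causes were not tested. The Wnt3a call at 14 days was kept under all 10 other settings (log2 fold change 3.40 to 3.69), that of Wnt11 between 14 and 6 days under 8 of 10, those of Wls under 4 and 6 of 10, and that of Sfrp5 under 6 of 9. Calls of 2-fold changes were rarely recovered in simulation, so genes not called may still differ. Depth limits the 7 untested genes and Sfrp5, whose 14-day values rest on 5 to 12 reads.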

Other observations

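Of the 45 genes, 4 pairs are close neighbours on a chromosome with 0 coding genes between them, and their levels can be set side by side. Wnt3a and Wnt9a lie 16.1 kb apart on chromosome 11. Wnt9a, a ligand known from joint formation, had a mean of 2.41 ± 2.02 CPM in controls (SD, n = 4), 0.993 ± 0.657 CPM at 6 days (SD, n = 8) and 0.686 ± 0.270 CPM at 14 days (SD, n = 3). Its log2 fold change at 14 days was -1.82 (SE 1.01, adjusted p = 0.296), where that of Wnt3a was 3.50. Wnt1 and Wnt10b lie 11.6 kb apart on chromosome 15, and Wnt1 had no read outside 1 library. These values are a description without a test of the difference between neighbours.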
